A study of Mus musculus with 18 samples.

Results

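A set of 10 well-known long noncoding RNA (lncRNA) genes, Malat1, Neat1, Gas5, Snhg1, Snhg8, Snhg12, Mir22hg, Kcnq1ot1, Dnm3os and Pvt1, were followed through 3 adipose tissues of the mouse. They were chosen by symbol, and each of the 10 was found as 1 row among the 54347 rows of the count table. They serve as a scale of abundance on which Gm15551, the lncRNA that the study deleted, can be placed. Poly(A) RNA was sequenced from the interscapular brown fat pad (iBAT) and from the inguinal (iWAT) and epididymal (eWAT) white fat pads of 12-week-old mice. The 3 wild type mice (wt) and 3 ΔGm15551 mice (ko) were litter mates of 1 line on the C57BL/6N background, and the knockouts carried a CRISPR/Cas9 deletion that includes exon 1 of Gm15551. Each mouse gave all 3 tissues, so that the 18 libraries formed 6 groups of 3 and the tissues were not independent samples.

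Long noncoding RNAs are transcribed and mostly spliced like messenger RNAs but do not encode a known protein, and the genes chosen here work in different ways. Malat1 is retained in nuclear speckles, domains rich in splicing factors, and Neat1 is the scaffold around which paraspeckles assemble. Gas5, Snhg1, Snhg8 and Snhg12 are host genes of small nucleolar RNAs (snoRNAs), which guide the chemical modification of ribosomal RNA. The snoRNAs are cut from introns of these genes, and a poly(A) library counts the polyadenylated host transcripts, spliced or not. Mir22hg carries miR-22, and Dnm3os, transcribed antisense to the dynamin gene Dnm3, carries miR-199a and miR-214. Kcnq1ot1 is transcribed from the paternal allele inside Kcnq1 and silences neighbouring imprinted genes in cis, and Pvt1 lies next to the oncogene Myc. The mature 3′ end of Malat1 and of the long Neat1 isoform is a triple helix instead of a poly(A) tail, so the levels given here count what poly(A) selection captured.

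The mature miRNAs that 2 of these transcripts carry are shown because they are the known products of these host genes. They were taken from RefSeq (GRCm38.p6), and the capitals mark the seed, bases 2 to 8, which pairs with target messenger RNAs. miR-22 lies on chromosome 11 inside Mir22hg, with its 5p strand at chr11:75463734-75463755 and its 3p strand at chr11:75463772-75463793, both on the plus strand. In Dnm3os, miR-199a-5p begins 221 bp and miR-214-5p 5774 bp after the start of the host, at chr1:162217844-162217866 and chr1:162223397-162223418 on the plus strand. The 3p strands lie at chr1:162217883-162217904 for miR-199a and chr1:162223438-162223459 for miR-214.
mmu-miR-22-5p: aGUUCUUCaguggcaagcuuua
mmu-miR-22-3p: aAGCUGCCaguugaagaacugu
mmu-miR-199a-5p: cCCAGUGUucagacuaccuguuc
mmu-miR-199a-3p: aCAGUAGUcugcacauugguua
mmu-miR-214-5p: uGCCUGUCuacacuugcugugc
mmu-miR-214-3p: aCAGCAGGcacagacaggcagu
The 6 seeds all differed from each other. Only the 3p strands of the Dnm3os miRNAs shared their seed with another mature miRNA of the table, miR-199a-3p with miR-199b-3p and miR-214-3p with miR-761. The libraries report on the host transcripts and not on these short products: the rows of Mir22 and Mir199a-2 were at 0 counts in all 18 libraries, and that of Mir214 held 1 count in 1 of them.

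The start sites of the 4 snoRNA hosts are shown because genes of this class are known for beginning at a C inside a run of pyrimidines, as ribosomal protein genes do. Each window holds 40 bases of the gene's own strand in GRCm38.p6, 20 before the RefSeq start site and 20 from it onward. Capitals mark a C followed by at least 4 bases that are each C or T, beginning within 5 bases of the start site. The windows lie at chr1:161035146-161035185 (plus) for Gas5, chr19:8723467-8723506 (plus) for Snhg1, chr3:123508317-123508356 (minus) for Snhg8 and chr4:132308658-132308697 (plus) for Snhg12.
Gas5: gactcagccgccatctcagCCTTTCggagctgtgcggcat
Snhg1: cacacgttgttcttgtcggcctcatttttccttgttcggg
Snhg8: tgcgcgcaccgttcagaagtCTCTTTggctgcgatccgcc
Snhg12: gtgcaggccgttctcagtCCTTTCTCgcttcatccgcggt
Such a run was found at the start site of Gas5, Snhg8 and Snhg12, and not in this window for Snhg1, where the longest run of C or T within the 40 bases was 9 bases long. The run was not particular to the snoRNA hosts, since Dnm3os and Mir22hg also had one, which made 5 of the 9 windows found for the 10 lncRNAs. Such runs were present at 18.3% of all 32851 RefSeq start sites and at 42% of 81 start sites of ribosomal protein genes. RefSeq holds a second start site for Gas5 that lacked the run. A match of letters describes these windows and does not show where transcription began in these tissues.

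The libraries held 14997901 to 34389586 counts each, and 18728 genes passed the filter on low counts, all 10 lncRNAs among them. Dnm3os cleared the cutoff of the filter in all 3 libraries of 4 of the 6 groups and Pvt1 in 5 groups. The groups that did not were both iBAT groups for Dnm3os and the iBAT knockouts for Pvt1, and 4 of the 6 iBAT libraries cleared it for each gene, where the filter asks for 3 libraries. Tissue labels were checked with marker genes: summed brown adipocyte markers were at 5847 to 11221 CPM (counts per 1000000 counts of the library, scaled by the TMM method) in iBAT, between 15.5 and 210.7 in iWAT and between 5.99 and 15.2 in eWAT. Gm15551 held 40 to 316 counts in the wild type libraries and 0 to 4 in the knockouts. In 4 libraries RNA of other tissues was present: lymph node genes in iWAT wt 3 and iWAT ko 2, skeletal muscle genes in iWAT ko 1 and epididymis genes in eWAT ko 3. As all values come from whole tissue, fewer cells of a type and less RNA per cell cannot be told apart.

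To compare abundance between genes, CPM was divided by the length of each gene's merged exons in GENCODE M21 (GRCm38), giving CPM per kb. On this scale the 10 lncRNAs spanned 2944-fold in iBAT, 629-fold in iWAT and 890-fold in eWAT between the highest and the lowest. Malat1 (chr19:5795690-5802672, minus strand, 6983 bp of exon) led in iBAT with 308.7 ± 23.2 CPM per kb (SD, n = 6) and in iWAT with 192 ± 40.1. Neat1, which lies beside it (chr19:5824708-5845478, minus strand, 20771 bp), led in eWAT with 217 ± 56.1 CPM per kb against 141 ± 16.4 for Malat1. The 2 genes were apart in iBAT, where no library of one reached the other. Their libraries overlapped in iWAT and eWAT, although Malat1 was above Neat1 in 6 of 6 mice in iWAT and below it in 5 of 6 mice in eWAT. The length matters for this pair, since the 20771 bp of Neat1 are those of its long isoform, whose mature end lacks a poly(A) tail. A shorter length would give Neat1 a higher level. In CPM without length, Neat1 averaged 2209 against 1341 for Malat1 in iWAT, and 1564 against 2155 in iBAT.

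A middle group followed, made of the miRNA host Mir22hg and the 4 snoRNA hosts. The merged exons of Snhg1 (2969 bp), Snhg8 (853 bp) and Snhg12 (2402 bp) cover the whole gene, introns included, which lowers their CPM per kb. Mir22hg (chr11:75461539-75466676, plus strand) reached 24.5 ± 3.40 CPM per kb in iBAT, 22.3 ± 6.08 in iWAT and 30.3 ± 8.76 in eWAT. Gas5 (chr1:161034422-161038539, plus strand) and Snhg8 (chr3:123507552-123508404, minus strand) lay between 11.2 and 21.8 CPM per kb on average. On merged exons Snhg8 was above Gas5 in 6 of 6 mice in iBAT and below it in 5 of 6 mice in iWAT and 6 of 6 in eWAT, with overlapping libraries each time. This order rests on the length used, since the mean transcript lengths are 741 bp for Gas5 and 584 bp for Snhg8, and with them Gas5 is above Snhg8 in every tissue. Snhg1 (chr19:8723475-8726443, plus strand) and Snhg12 (chr4:132308623-132311024, plus strand) were not apart from each other in any tissue, at 4.38 to 6.07 CPM per kb on average.

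At the low end stood Kcnq1ot1, Dnm3os and Pvt1, all under 1 CPM per kb. Kcnq1ot1 (chr7:143203458-143296549, minus strand) is a single exon of 93092 bp inside Kcnq1, and its 196 to 1020 counts per library came to only 0.219 CPM per kb in iBAT, 0.305 in iWAT and 0.244 in eWAT. Dnm3os (chr1:162217623-162225550, plus strand) had 0.107 ± 0.0296 CPM per kb in iBAT, from 8 to 17 counts, and 0.644 ± 0.136 in iWAT. Pvt1 spreads its 21 merged exons over 340111 bp (chr15:62037986-62378096, plus strand) and had 0.105 ± 0.0420 CPM per kb in iBAT, from 5 to 18 counts. Dnm3os and Pvt1 could not be ordered in any tissue, and neither could Pvt1 and Kcnq1ot1 in iWAT and eWAT. Of the 9 pairs of neighbours in the order, 6 did not overlap in iBAT, 3 in iWAT and 3 in eWAT.

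**Figure D1:**
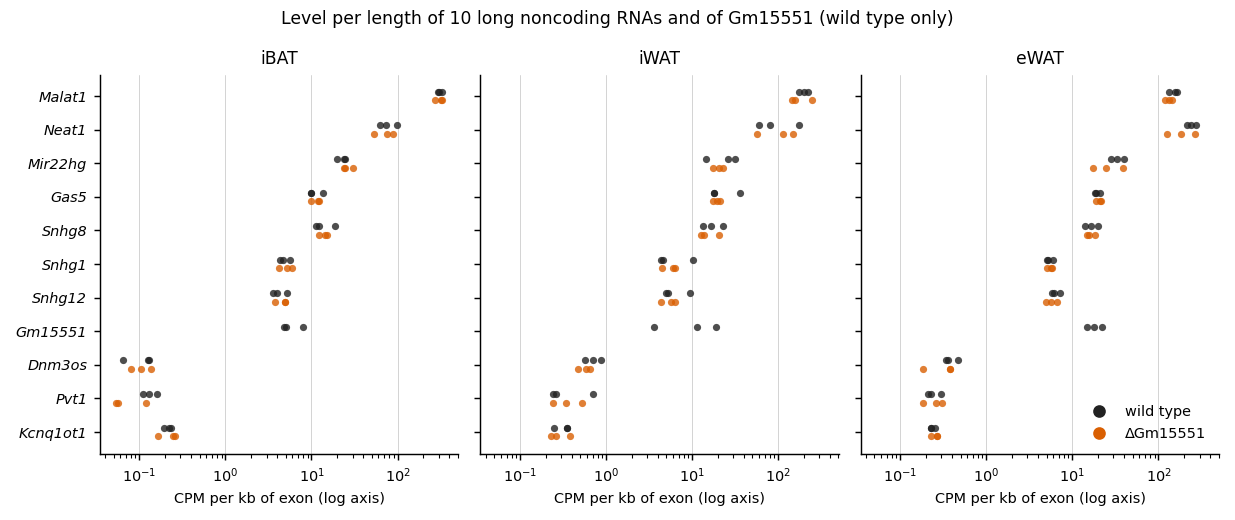
Level per length (CPM per kb of merged exon, log axis) of the 10 lncRNAs and of Gm15551 in iBAT, iWAT and eWAT, with 1 point per library, wild type in black and ΔGm15551 in orange. Gm15551 is drawn for the wild type only. On merged exons it sits among the snoRNA hosts, and it ranks lower when mean transcript lengths are used. It lies above Dnm3os, Pvt1 and Kcnq1ot1, which stay under 1 CPM per kb in every library.

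Gm15551 (chr3:126667329-126669044, minus strand, 535 bp of exon) was placed on this scale with the 3 wild type libraries of each tissue. It had 5.93 ± 1.68 CPM per kb in iBAT, 11.4 ± 7.77 in iWAT and 18.2 ± 3.51 in eWAT (SD, n = 3), which ranked it 6, 6 and 5 among the 11 genes. Malat1 was 52.4 times as high as Gm15551 in iBAT, 17.5 times in iWAT and 8.27 times in eWAT, and Neat1 13.2, 9.22 and 13.3 times. In iBAT its libraries overlapped those of Snhg1 and Snhg12, and in eWAT those of Gas5 and Snhg8. In iWAT they overlapped Mir22hg and all 4 snoRNA hosts. The wild type libraries of iWAT held 19.2, 11.4 and 3.64 CPM per kb of Gm15551, and the lowest was wt 3, the library with lymph node genes. Kcnq1ot1, Dnm3os and Pvt1 were lower than Gm15551 in every wild type library, and their wild type means per tissue were 0.0129 to 0.0628 of its mean. Among the 10309 lncRNA genes with any count, Gm15551 stood at the 98.6th percentile in iBAT, the 99.4th in iWAT and the 99.6th in eWAT. Only 2802 lncRNA genes passed the filter on low counts, so most of this background was near 0. Among protein-coding genes with any count the percentiles were 71.8, 83.5 and 89.7. The place depends on the length used, since the merged exons of the snoRNA hosts take in introns. Gas5 has 3760 bp of merged exons but a mean transcript length of 741 bp. For Snhg1 these are 2969 and 810 bp, and for Snhg12 2402 and 952 bp. With mean transcript lengths the ranks of Gm15551 were 8, 8 and 7, below Mir22hg and all 4 snoRNA hosts in iBAT and iWAT.

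The place of the set within all lncRNA also varied. Of the counts, lncRNA genes together took 0.782% to 1.02% in the iBAT libraries, 1.23% to 1.86% in those of iWAT and 1.62% to 2.93% in those of eWAT. The named genes made up 27.3% to 31.7% of these lncRNA counts in iBAT, between 21.3% and 36.1% in iWAT and between 17.1% and 43.0% in eWAT, most of it from Malat1 and Neat1. The lowest share in eWAT came from ko 3, the library with epididymis genes, and the other 5 eWAT libraries ranged from 37.5% upward. In iWAT the lowest shares came from wt 3 and ko 2, the libraries with lymph node genes.

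Tissues were compared with edgeR in a model with tissue and genotype over all 18 libraries, with p-values adjusted over all 18728 genes. Between iBAT and iWAT 6 of the 10 lncRNAs passed an adjusted p of 0.05, against a background of 54.3% of all genes and 34.6% of lncRNA genes. Malat1 was higher in iBAT (background 24%) and Gas5, Snhg12, Kcnq1ot1, Dnm3os and Pvt1 were lower (background 30.3%). The libraries of both tissues did not overlap for 4 of the 10 against 34.6% of all genes. Between iBAT and eWAT 6 of 10 passed, against 54.6% of all genes and 36.2% of lncRNA genes. Malat1 was again higher (background 24.4%) and Neat1, Gas5, Snhg12, Dnm3os and Pvt1 were lower (background 30.2%), and the libraries of 5 of the 10 did not overlap against 37.3% of all genes. Both comparisons use the same 6 iBAT libraries. Between iWAT and eWAT 2 of 10 passed, against 10.2% of all genes and 5.28% of lncRNA genes. Dnm3os was higher in iWAT (background 5.7%) and Neat1 lower (background 4.5%), and the libraries did not overlap for 1 of the 10, Dnm3os, against 4.62% of all genes. In the comparisons of iBAT the share of the 10 that passed was near that of all genes and above that of lncRNA genes. The 10 hold some of the most abundant lncRNA genes, and these shares were not matched for count. The median log2 fold change of the 10 was -0.47, -0.38 and 0.14 in the 3 comparisons, beside -0.14, -0.17 and 0.01 over all genes tested.

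The scaling matters for these comparisons. Genes of the mitochondrial genome held 22.9% to 26.99% of the counts in iBAT and 3.77% to 9.64% in the white tissues, and the TMM factors, by which library totals are multiplied, were 0.617 to 0.744 in iBAT and 1.06 to 1.44 in the white tissues. With library totals in place of TMM, the median of all genes shifted by -0.81 for iBAT against iWAT and by -0.87 for iBAT against eWAT on the log2 scale, and by -0.06 between the white tissues. The directions given below are therefore relative to the bulk of the genes in each library.

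**Figure D2:**
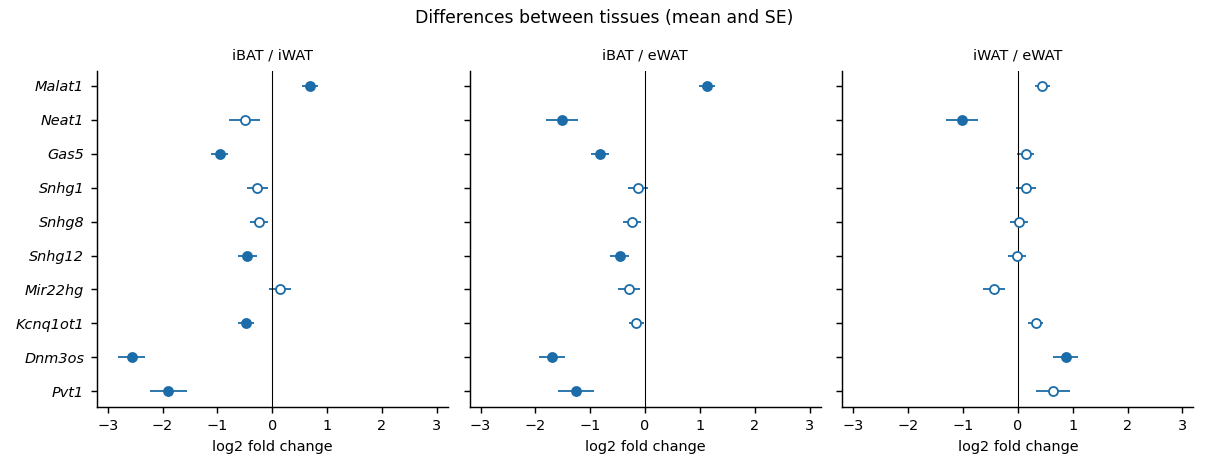
Log2 fold change (x axis) of each lncRNA between tissues, with TMM scaling, as the fitted value with its standard error, where filled points passed an edgeR adjusted p of 0.05 and open points did not. Malat1 lies at 0.69 and 1.13 for iBAT against iWAT and eWAT, the first of which turns to -0.11 with library totals, while Dnm3os lies farthest to the left at -2.57 and -1.70.

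With TMM scaling Malat1 was the only one of the 10 that passed as higher in iBAT, and against iWAT this direction turned when library totals were used. It ran from 1884 to 2306 CPM in the 6 iBAT libraries with a median of 2198, from 1017 to 1738 CPM in iWAT with a median of 1305, and from 840 to 1149 CPM in eWAT with a median of 960. The iBAT libraries were above all white libraries, and iWAT and eWAT overlapped. The log2 fold change was 0.69 ± 0.14 (SE) against iWAT, with an edgeR adjusted p of 0.000641, and 1.13 ± 0.14 against eWAT, with an adjusted p of 4.35e-06. Scaled to library totals the difference to iWAT turned to -0.11 (adjusted p 0.460) and that to eWAT shrank to 0.27 (adjusted p 0.0831). In wild type libraries only, the difference to iWAT was 0.63 and did not pass (adjusted p 0.0583). Malat1 took 0.116% to 0.163% of all counts in iBAT, between 0.117% and 0.205% in iWAT and between 0.0967% and 0.138% in eWAT. Between iWAT and eWAT it differed by 0.44 with an edgeR adjusted p of 0.0552. It passed with DESeq2 (0.00256), with DESeq2 size factors (0.0466), without the 4 libraries that hold RNA of other tissues (0.00374) and without the 2 of them with lymph node genes (0.0158).

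Neat1 was highest in eWAT. It ran from 1107 to 2067 CPM in iBAT with a median of 1542, from 1173 to 3606 CPM in iWAT with a median of 2043, and from 2606 to 5745 CPM in eWAT with a median of 4688. No eWAT library was as low as any iBAT library, whereas the iWAT libraries overlapped both. Neat1 was lower in iBAT than in eWAT by -1.52 ± 0.29 on the log2 scale (edgeR adjusted p 0.000308) and lower in iWAT than in eWAT by -1.02 ± 0.29 (adjusted p 0.0337). The difference between iBAT and iWAT, -0.50 ± 0.29, did not pass (adjusted p 0.149), but with library totals it was -1.27 and did (adjusted p 0.000291).

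Within iWAT, Neat1 was lowest in the 2 libraries that hold lymph node genes, at 1256 CPM in wt 3 and 1173 CPM in ko 2, and ran from 1695 to 3606 CPM in the other 4. Without these 2 libraries the difference between iBAT and iWAT passed (-0.80, edgeR adjusted p 0.0154) and that between iWAT and eWAT did not (-0.73, adjusted p 0.0983). The latter was also lost when mouse ko 2, wt 2 or wt 3 was left out, with adjusted p-values of 0.107, 0.117 and 0.110. In eWAT the lowest value of Neat1 was that of ko 3, the library with epididymis genes.

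Frmd8, the protein-coding gene 4224 bp beyond Neat1, gave -0.36 and -0.01 for iBAT against iWAT and eWAT and did not pass in either. Of 19 genes for paraspeckle proteins, 3 were higher and 7 lower in iBAT than in iWAT, and 3 were higher and 10 lower than in eWAT, where the median was -0.33. With library totals 0 were higher in both comparisons, and 18 and 17 were lower. The 10 and 13 of 19 that passed stand beside 54.3% and 54.6% of all genes. The 5 with the smallest p against eWAT were the core paraspeckle proteins Pspc1 (-0.98) and Nono (-0.38), the RNA-binding protein Ewsr1 (-0.42), and Hnrnph3 (0.67) and Dazap1 (0.42), the last 2 of which turned to -0.20 and -0.45 with library totals. Of 14 genes for nuclear speckle proteins, 1 was higher and 6 lower in iBAT than in iWAT, and 1 higher and 8 lower than in eWAT, while with library totals 0 were higher and 14 lower in both. With TMM these 7 and 9 of 14 stand beside the same shares of all genes. The splicing factor Srsf6 (-0.62 and -0.69) had the smallest p of them in both comparisons. Between iWAT and eWAT no gene of either list passed, with 0 calls by edgeR and medians of -0.08 and -0.09.

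Because Malat1 and Neat1 are counted in the same library, their ratio needs no scaling. The ratio of Neat1 to Malat1 counts was 0.485 to 0.975 in iBAT, between 1.03 and 2.84 in iWAT and between 2.82 and 6.57 in eWAT. Each tissue took its own range, with a narrow overlap between iWAT and eWAT. Within mice the ratio was 2.15-fold lower in iBAT than in iWAT, 6.25-fold lower in iBAT than in eWAT and 2.91-fold lower in iWAT than in eWAT, and each of these held in 6 of 6 mice. This ratio was chosen after the levels had been seen and is given without a test.

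**Figure D3:**
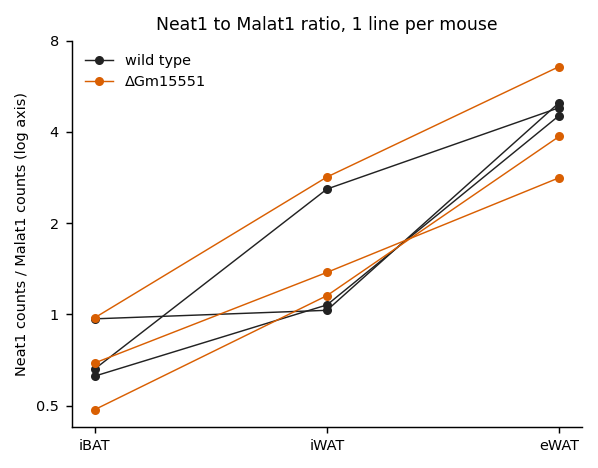
Ratio of Neat1 to Malat1 counts (y axis, log scale) in iBAT, iWAT and eWAT, with 1 line for each of the 6 mice, wild type in black and ΔGm15551 in orange. Every line rises from iBAT to iWAT to eWAT, from 0.485 to 0.975 in iBAT up to 2.82 to 6.57 in eWAT.

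The snoRNA hosts were next. Gas5, whose transcript is degraded when translation is active and builds up in arrested cells, had 36.7 to 51.1 CPM in iBAT with a median of 40.7, 66.0 to 136 CPM in iWAT with a median of 71.5, and 67.9 to 79.9 CPM in eWAT with a median of 74.0. All iBAT libraries were below all white libraries. The log2 fold change was -0.96 ± 0.16 against iWAT (edgeR adjusted p 8.57e-05) and -0.82 ± 0.16 against eWAT (adjusted p 0.000326), and 0.14 ± 0.16 between iWAT and eWAT (adjusted p 0.627). In wild type libraries only, the difference to eWAT was -0.79 and did not pass (adjusted p 0.0543). The overlapping gene Zbtb37 on the other strand was also lower in iBAT, by -0.64 and -0.48.

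Snhg12 differed less. It had 8.56 to 12.5 CPM in iBAT, 10.6 to 22.6 CPM in iWAT and 11.9 to 17.3 CPM in eWAT, and the iBAT range overlapped both of the others. It was lower in iBAT by -0.45 ± 0.17 against iWAT (edgeR adjusted p 0.0303) and -0.47 ± 0.17 against eWAT (adjusted p 0.0260). The first call was lost without the 2 iWAT libraries that hold lymph node genes (-0.26, adjusted p 0.159) and without mouse ko 2, wt 1 or wt 2 (adjusted p 0.0534, 0.0680 and 0.0662). The second was lost without mouse ko 1, wt 1 or wt 2 (0.0853, 0.0782 and 0.0742).

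With TMM scaling Snhg1 and Snhg8 passed in no tissue comparison. Snhg1 had 12.6 to 17.5 CPM in iBAT, between 13.0 and 30.9 in iWAT and between 15.0 and 17.8 in eWAT. Snhg8 had 9.59 to 15.9 CPM in iBAT, between 10.9 and 19.4 in iWAT and between 12.0 and 17.04 in eWAT. For both, the 3 tissues overlapped widely, and the log2 differences of iBAT ran from -0.27 to -0.13 with standard errors of 0.17 to 0.19. Next to Snhg1, the amino acid transporter subunit Slc3a2, 106 bp away on the other strand, was lower in iBAT by -0.72 and -1.004 (edgeR adjusted p 0.00549 and 0.000426), and Wdr74 was higher by 0.34 and 0.22, which turned to -0.47 and -0.64 with library totals. With library totals all 4 snoRNA hosts were lower in iBAT than in both white tissues, by -0.998 (Snhg1 against eWAT) to -1.802 (Gas5 against iWAT) on the log2 scale.

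Among 13 further noncoding snoRNA hosts tested, 1 was higher and 4 were lower in iBAT than in iWAT, and 1 was higher and 6 were lower than in eWAT. These 5 and 7 of 13, or 38.5% and 53.8%, stand beside 54.3% and 54.6% of all genes, and with library totals 0 were higher and 11 and 12 lower. The higher one was Snhg4 (0.58 and 0.77, turning to -0.26 and -0.10 without passing when library totals were used), and Snhg5 (-0.86 and -1.08), Snhg11 (-2.22 and -3.06), Snhg17 (-0.91 and -1.08) and Snhg18 (-1.67 and -1.83) were lower in both. None of the 13 passed between iWAT and eWAT, with 0 calls by edgeR. The genes with Rps or Rpl symbols, of which 85 were tested, did not move as one: 8 were higher and 17 lower in iBAT than in iWAT, and 13 higher and 3 lower than in eWAT. These 25 and 16 of 85, or 29.4% and 18.8%, stand beside 54.3% and 54.6% of all genes. With library totals 2 were higher and 80 lower than in iWAT, and 1 higher and 69 lower than in eWAT.

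Within iWAT the same 2 libraries stood apart for several hosts. The summed lymphocyte and lymph node markers, 10 of 10 detected, were at 1408 CPM in wt 3 and 638.7 CPM in ko 2, and at 22.3 to 48.7 CPM in the other 4. Gas5 was highest in these libraries, with 136 and 79.9 CPM against 66.0 to 74.3 in the other 4. Snhg1 was likewise highest, with 30.9 and 18.7 CPM against 13.0 to 17.8. Pvt1 was at 4.95 and 3.72 CPM against 1.69 to 2.38. Snhg12 and Snhg8 were highest in wt 3, at 22.6 and 19.4 CPM, and within the range of the others in ko 2. The part of lymph node RNA in these values was not tested beyond leaving the libraries out, after which Gas5 and Pvt1 still passed between iBAT and both white tissues.

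**Figure D4:**
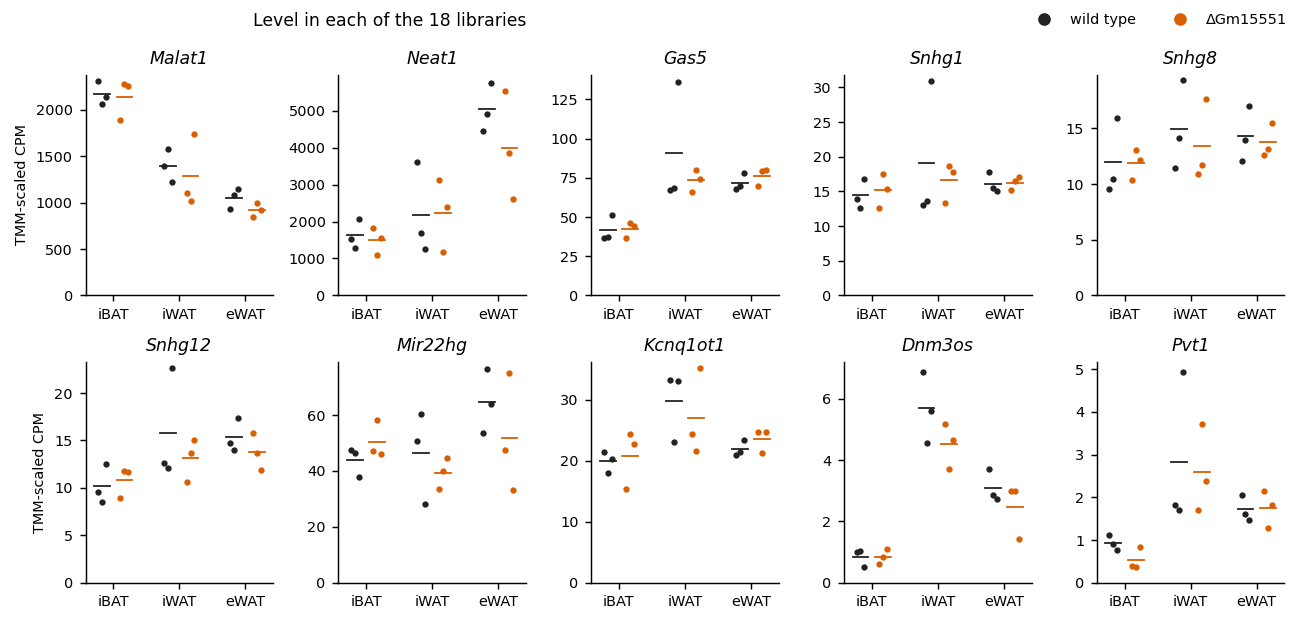
TMM-scaled CPM (y axis, from 0) of each lncRNA in the 18 libraries, grouped by tissue, with wild type in black and ΔGm15551 in orange, points in the order of mouse 1, 2 and 3 and lines at the group means. On this scale Malat1 is highest in iBAT, a direction that turns against iWAT with library totals, Neat1 is highest in eWAT, and Gas5, Dnm3os and Pvt1 are lower in every iBAT library than in any white one, with iWAT wt 3 as the high point of Gas5 at 136 CPM and of Snhg1 at 30.9 CPM.

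Over the 18 libraries the 4 snoRNA hosts varied together. The 6 pairs among them had Pearson correlations of log2 CPM from 0.67 to 0.86 with a median of 0.73, compared with a median of 0.20 for the other 39 pairs of the 10 lncRNAs. Those 39 ranged from -0.73 to 0.84, and the highest of them, Gas5 with Pvt1 (0.84) and Dnm3os with Pvt1 (0.81), were as high as the host pairs. Taken as deviations from the tissue means, the medians were 0.78 and 0.12, and without the 2 libraries with lymph node genes (16 libraries) 0.65 and 0.07. The points share mice, tissues and library totals, and these values are descriptions without a test. The genes whose pattern over the 18 libraries was most like that of Snhg1 were the ribosomal protein genes Rps18 (r = 0.92), Rps7 (0.92) and Rps10 (0.91). This search was not repeated without the 2 libraries with lymph node genes, in which Snhg1 was highest within iWAT. For Gas5 they were Trappc14 (0.97), Tmsb4x (0.96) and Rpl22l1 (0.96), for Snhg8 Ctu2 (0.90), Tmco6 (0.89) and Gm10800 (0.88), and for Snhg12 Snn (0.88), Myl12b (0.88) and Uimc1 (0.88).

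Of the 2 miRNA hosts, Dnm3os differed most between tissues. It had 0.517 to 1.09 CPM in iBAT with a median of 0.908, 3.72 to 6.88 CPM in iWAT with a median of 4.92, and 1.44 to 3.69 CPM in eWAT with a median of 2.92. The 3 tissues did not overlap: even the highest eWAT library was below the lowest of iWAT, and the highest iBAT library below the lowest of eWAT. The log2 fold change was -2.57 ± 0.25 for iBAT against iWAT (edgeR adjusted p 2.62e-07), -1.70 ± 0.24 against eWAT (adjusted p 1.72e-05) and 0.87 ± 0.23 for iWAT against eWAT (adjusted p 0.0241). In iBAT this rests on 8 to 17 counts per library. The difference between iWAT and eWAT lost its call when mouse ko 1, ko 2, wt 1, wt 2 or wt 3 was left out (0.84 to 0.98, adjusted p 0.0561 to 0.0777), and also without the 4 libraries that hold RNA of other tissues (0.80, adjusted p 0.0512).

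Of 3 genes tied to the Dnm3os locus, 3 were lower in iBAT than in iWAT and 2 lower than in eWAT, where the background was 30.3% and 30.2% of all genes. The transcription factor Twist1, a known activator of the locus, was lower in iBAT than in iWAT by -0.89 (edgeR adjusted p 0.000940), Twist2 by -2.61 (adjusted p 2.58e-05) and the host locus gene Dnm3 by -0.98 (adjusted p 0.000499). Against eWAT, Twist2 (-1.96) and Dnm3 (-0.60) were lower and Twist1 gave -0.28 without passing. The genes most like Dnm3os over the 18 libraries were Ctsk (r = 0.97), Tshz3 (0.96) and Asgr2 (0.95). Markers of fibroblasts and adipocyte progenitors moved the same way: 8 of 9 were lower in iBAT than in iWAT, 7 of 9 lower than in eWAT, and 7 of 9 higher in iWAT than in eWAT, beside 30.3%, 30.2% and 5.7% of all genes. Their summed level was 538.4 to 828 CPM in iBAT, between 3380 and 10096 in iWAT and between 1215 and 2864 in eWAT, and their part in the Dnm3os values was not tested.

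With TMM scaling Mir22hg, the host of miR-22, passed in no tissue comparison. It had 37.7 to 58.2 CPM in iBAT, between 28.1 and 60.5 in iWAT and between 33.1 and 76.6 in eWAT, with wide overlap. The log2 fold change was 0.15 ± 0.20 for iBAT against iWAT (edgeR adjusted p 0.563), -0.30 ± 0.20 against eWAT (adjusted p 0.224) and -0.44 ± 0.20 for iWAT against eWAT (adjusted p 0.175). With library totals the first of these turned to -0.64 (adjusted p 0.00238) and the second was -1.15 (adjusted p 1.22e-05). The second also passed without the 4 libraries that hold RNA of other tissues (-0.43, adjusted p 0.0184). It shares exonic bases with Tlcd2 on the same strand, so the split of their counts is uncertain. Of 5 other miRNA host lncRNAs tested, 4 were lower in iBAT than in iWAT and 3 lower than in eWAT (30.3% and 30.2% of all genes), among them Mir100hg (-1.53 and -1.97) and Mir99ahg (-1.21 and -1.30), which carry miRNAs of the let-7 and miR-99 clusters.

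With TMM scaling Kcnq1ot1 passed as lower in iBAT against iWAT. It had 15.3 to 24.3 CPM in iBAT with a median of 20.9, 21.5 to 35.2 CPM in iWAT with a median of 28.7, and 20.9 to 24.8 CPM in eWAT with a median of 22.4. The difference to iWAT was -0.48 ± 0.14 (edgeR adjusted p 0.00797), with libraries that overlapped, and that to eWAT -0.16 ± 0.14 (adjusted p 0.350). With library totals the difference to eWAT was -1.02 and passed (adjusted p 7.09e-05). It shares 1119 exonic bases with genes on the other strand, Kcnq1 among them, and whether counting used strand is not given in the sources used here, so reads from these bases are uncertain. Of 8 genes of its imprinted domain tested, 2 were higher and 2 lower in iBAT than in iWAT, and 2 higher and 3 lower than in eWAT, beside 54.3% and 54.6% of all genes that passed. With library totals 1 was higher and 5 lower than in iWAT, and 0 higher and 6 lower than in eWAT. Cdkn1c, a cell cycle inhibitor that Kcnq1ot1 is known to silence, was higher by 1.78 (adjusted p 0.000175) and with library totals by 1.03, as was Nap1l4 by 0.95, which gave 0.15 with library totals and did not pass, and Slc22a18 (-3.17) and Osbpl5 (-0.69) were lower. Kcnq1 itself gave 0.00 between iBAT and iWAT. Against eWAT it was lower in iBAT by -1.72 (edgeR adjusted p 0.00262), and by -1.06 (adjusted p 0.00250) without ko 3, the library with epididymis genes, which held 19.5 CPM.

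Pvt1 was low throughout, with 0.376 to 1.11 CPM in iBAT and a median of 0.806, 1.69 to 4.95 CPM in iWAT and a median of 2.10, and 1.29 to 2.15 CPM in eWAT and a median of 1.72. No iBAT library reached a white library. The log2 fold change was -1.89 ± 0.33 against iWAT (edgeR adjusted p 0.000154) and -1.26 ± 0.33 against eWAT (adjusted p 0.00410), and 0.64 ± 0.31 between iWAT and eWAT (adjusted p 0.214). In wild type libraries only, the difference to eWAT was -0.88 and did not pass (adjusted p 0.175). Myc, the transcription factor gene 47612 bp away, was also lower in iBAT, by -1.38 ± 0.35 (adjusted p 0.00328) and -1.09 ± 0.35 (adjusted p 0.0142). The genes most like Pvt1 over the 18 libraries were Dok1 (r = 0.94), Obi1 (0.94) and Psrc1 (0.94).

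Among 17 other lncRNAs that are often studied, 1 was higher and 7 were lower in iBAT than in iWAT, with a median of -0.25. Against eWAT 4 were higher and 2 lower, with a median of -0.01. These 8 and 6 of 17 stand beside 54.3% and 54.6% of all genes, and with library totals 1 was higher in each comparison and 14 and 10 were lower. Oip5os1 was higher in both, at 1.20 against iWAT and 1.31 against eWAT, and at 0.40 and 0.44 with library totals. The imprinted H19 (-2.63) and Meg3 (-0.87) were lower in iBAT than in iWAT and higher in iWAT than in eWAT (2.21 and 0.86). For Malat1 the most similar genes over the 18 libraries were Gm12276 (r = 0.97), Pcbd2 (0.96) and Pex6 (0.96), and for Neat1 Tmem216 (0.96), Ubxn8 (0.95) and Gm45470 (0.94). Mir22hg and Kcnq1ot1 had no counterpart of that closeness: their nearest were Coq8b (0.84) and Gm44369 (0.84).

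The knockout was then compared with the wild type, to ask whether the loss of Gm15551 goes with a change in other lncRNAs. None of the 10 passed in any comparison, with 0 of 10 by edgeR at an adjusted p of 0.05 and 0 of 10 at an unadjusted p of 0.05. The background was 0.00534% of genes across tissues (0.0357% of lncRNA genes), 0% in iBAT, 0% in iWAT, 0.00534% in eWAT (0.0357% of lncRNA genes) and 0% for the interaction of genotype and tissue, with 238 to 814 genes at an unadjusted p under 0.05. DESeq2 also called 0 of the 10, and called 0 to 13 of all genes. Across tissues the log2 fold changes ran from -0.26 ± 0.26 for Pvt1 to 0.01 ± 0.11 for Kcnq1ot1, with edgeR adjusted p-values that all rounded to 1. The median over the 10 was -0.11, beside 0.00 over all genes. Gm15551 itself was lower across tissues with an edgeR adjusted p of 9.08e-07. The fit across tissues counted the tissues of a mouse as independent samples, so its standard errors and p-values may be too small. Within single tissues even the deleted gene passed only for eWAT (adjusted p 0.0318), and not for iBAT (0.191) or iWAT (0.0551).

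Within tissues the widest difference was that of Pvt1 in iBAT, at -0.78 ± 0.49, with 12 to 18 counts in the wild type and 5 to 13 in the knockout. Its values were 1.11, 0.907 and 0.776 CPM in wt 1, 2 and 3 and 0.391, 0.376 and 0.837 CPM in ko 1, 2 and 3, so that ko 3 lay inside the wild type range. For the other 9 lncRNAs the within-tissue log2 fold changes lay between -0.34 and 0.20, with standard errors of 0.20 to 0.43. In none of the 3 tissues did the genotypes separate for any of the 10, whereas 4.94%, 4.92% and 5.25% of all genes had libraries that did not overlap in iBAT, iWAT and eWAT. In eWAT, Neat1 was at 5041 ± 653 CPM (SD, n = 3) in the wild type and at 3991 ± 1463 CPM (SD, n = 3) in the knockout, a difference of -0.34 ± 0.43. With 3 mice per genotype, changes of the size of these standard errors would not be detectable.

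**Figure D5:**
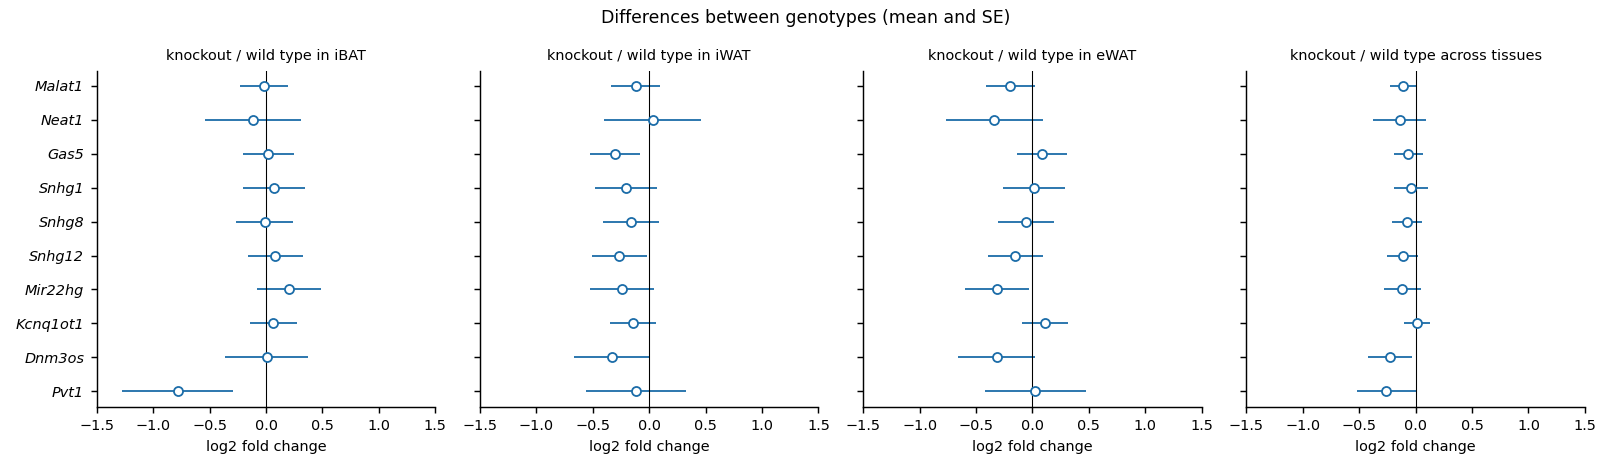
Log2 fold change (x axis) of each lncRNA in ΔGm15551 against wild type within iBAT, iWAT and eWAT and across tissues, as the fitted value with its standard error, where all points are open because none passed an edgeR adjusted p of 0.05. All values lie between -0.34 and 0.20 except Pvt1 in iBAT at -0.78.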

How the data were processed

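The authors trimmed paired reads of NEBNext Ultra II libraries using cutadapt and ran Salmon on GENCODE M22 transcripts (GRCm38), alone or combined with RNAcentral. The deposited table gives estimated counts for each gene, rounded and not normalised. Which reference was used and the strand setting are not given in the sources used here. Salmon divides reads that fit several genes, so snoRNA hosts, Mir22hg and antisense genes carry some uncertainty. All 18 libraries (3 per tissue and genotype) were used, with 14997901 to 34389586 counts. A count of 0 allows up to 3 counts, or 0.0728 to 0.235 CPM. These limits cover counting error only, and p-values measure the spread between mice.

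Positions, exon lengths and names came from GENCODE M21, in which 54094 rows were found, and sequences from RefSeq, in which 8 of the 10 genes had a start site. Counts were tested in edgeR 4.0.16 (R 4.3.3) by quasi-likelihood with TMM scaling and filterByExpr, and p-values were adjusted by Benjamini-Hochberg over 18728 genes. Tissue plus genotype terms gave the tissue contrasts and the genotype effect across tissues, and 1 mean per group gave the effects within tissues and the interaction. SE is the log2 fold change over the square root of F. The fits were tested on simulated counts. The same animals gave the 3 tissues, so a fit with the mouse as a block was an alternative (deviations of libraries of 1 mouse correlated by -0.165 to 0.326). Other alternatives were DESeq2 1.42.0, its size factors, no filter, no mitochondrial genes, wild type only, and leaving out mice or libraries. Library totals, leaving out 2 iWAT libraries or (for Kcnq1) eWAT ko 3, and the Neat1 to Malat1 ratio were added after seeing the data. Named genes are the 10, Gm15551, neighbours (some are not reported here), the 3 most correlated genes, and up to 5 per list. The members and lists were chosen with earlier results of these data known.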

Additional observations from a re-analysis of the deposited data

Results flagged for a closer look

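Dixon's ratio, the gap of the highest or lowest library to its neighbour over the whole range, was computed on log2 CPM in the 6 libraries of each tissue for each of the 10 lncRNAs, and its 95% critical value was exceeded in 2 of 30 groups, and chance gives about 1.5. Gas5 in iWAT was highest in wt 3, with a ratio of 0.737, and this library also held the highest sum of lymph node markers. Dnm3os in eWAT was lowest in ko 3, with a ratio of 0.675, and this library held epididymis markers at 5093 CPM against at most 34.5 CPM in the other eWAT libraries. Whether the carried-along tissue set either value was not tested.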

How the results depend on the processing

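Between iWAT and eWAT, where 2 lncRNAs passed (Neat1 and Dnm3os), the number was 3 with DESeq2 and with its size factors (Malat1 adjusted p 0.00256 and 0.0466), 1 without the filter on low counts (Dnm3os adjusted p 0.0622), 0 in wild type libraries only (Neat1 0.271, Dnm3os 0.266) and 0 to 2 when 1 mouse was left out. All genes called there numbered 1911 in edgeR and 2705 in DESeq2, 247 in wild type libraries only and 750 to 1595 without 1 mouse. Between iBAT and eWAT, wild type libraries only gave 3 of 6 calls (without Gas5, Snhg12 and Pvt1, adjusted p 0.0543, 0.122 and 0.175) and 6574 genes against 10220, and between iBAT and iWAT 4 of 6 (without Malat1 and Snhg12, 0.0583 and 0.0971) and 6595 against 10164. These fits hold fewer samples. With library totals in place of TMM, 9 lncRNAs passed in each comparison of iBAT, Malat1 against iWAT turned to -0.11 and Mir22hg to -0.64, and of all genes called 1438 were higher and 12804 lower than in iWAT, against 4490 and 5674 with TMM. Than in eWAT, 1579 were higher and 13159 lower, against 4565 and 5655. Over single lncRNAs and all settings, 871 values kept their direction and call, 96 without a call changed sign, 14 gained a call, 27 lost it and 2 turned with a call in 1 of the 2 fits. The rank of Gm15551 became 7 in iBAT and 6 in eWAT with the longest transcript and 8, 8 and 7 with the mean transcript length, and ranged from 5 to 6 in iWAT and 4 to 5 in eWAT when 1 wild type mouse was left out. Neighbours apart in eWAT, 3 of 9, became 5 and 6 with these lengths and 3 to 6 without 1 mouse, the 6 being without eWAT ko 3. For the pairing, the mouse as a block gave 6, 6 and 2 calls, as without it, and changed no call. Replicate numbers do not tie a wild type to a knockout mouse: correlations of same-numbered libraries ran from -0.465 to 0.551, and this block gave 0 calls in each genotype comparison. The genotype counts stayed at 0 of 10 under every alternative run. DESeq2 called 4, 13, 4 and 13 genes in all across tissues and in iBAT, iWAT and eWAT. The effect within iWAT without the 4 libraries with RNA of other tissues gave 11 genes in all and 0 of the 10. Low counts limit Dnm3os and Pvt1 in iBAT.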
